A study of Saccharomyces cerevisiae with 6 samples.

Results

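The small subunit of the mitochondrial ribosome in the budding yeast Saccharomyces cerevisiae is built from 1 ribosomal RNA and a set of proteins, almost all of which are encoded in the nucleus, translated in the cytosol and imported into mitochondria. Together with the large subunit it translates the few proteins encoded by mitochondrial DNA, most of them membrane subunits of the respiratory chain and ATP synthase. Some of its proteins have counterparts in the small subunit of bacterial ribosomes, and others occur in mitochondria and have no such counterpart. The genes described here are the 31 nuclear genes of a fixed list of MRP, MRPS and RSM genes with PET123, NAM9 and SWS2. All 31 were found among the 6603 open reading frames of the deposited table. RefSeq names 30 of the 31 products as mitochondrial 37S ribosomal proteins, 37S being the sedimentation name of this subunit, and names the product of RSM22 as a tRNA methyltransferase.

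Messenger RNA levels were compared between 2 kinds of library made from RNA of log-phase BY4741, a haploid laboratory strain. One group of 3 libraries held RNA that had condensed in a test tube at 150 mM NaCl, 10% polyethylene glycol (PEG), 1 mM MgCl2, with yeast RNA at 150 µg/mL, and had then been spun down. These are called assemblies. The other group of 3 libraries held total yeast RNA, for which the labels repeat the salt and PEG text although the design names it only as the reference, so its handling is not settled. All RNA had been extracted with phenol and chloroform, and ribosomal RNA was removed from all 6 libraries. BY4741 carries deletions in HIS3, LEU2, MET17 and URA3. LEU2 and MET17 had 0 reads in every library, URA3 had 1 read in 1 library, and HIS3, which is deleted in part, had 131 to 344 reads per library.

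Depth was 8749240 to 10531980 reads assigned to open reading frames per library, and the 31 genes received 29 to 1031 reads each in a library. Whether replicate libraries go back to separate cultures or reactions is not stated, so p-values reflect the spread between these libraries, which may be technical. The pair formed by total RNA libraries 1 and 2 was closest among same-group pairs (a chi-square of 1.57 per degree of freedom, where other pairs had 12.1 to 59.8). Values are normalised reads, that is, reads divided by 1 size factor per library, which centres the median gene. A fold change is therefore relative to that gene and says nothing of the amount of RNA. When libraries were instead scaled to equal totals, the median gene shifted to -0.54 on the log2 scale.

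All 31 genes lie on nuclear chromosomes, 12 in all, with 16 genes on the plus strand and 15 on the minus strand of build R64. Each has its coding sequence in a single part, from 276 nt in RSM19 to 1887 nt in RSM22, with a median of 795 nt. No member has a near-identical coding sequence elsewhere in the genome, and the only overlap with another RefSeq gene was 2 bases shared by MRP4 and YHL005C on the opposite strand. Most of these mRNAs share a sequence downstream of the coding region. Puf3, an RNA-binding protein of the Pumilio family, is known in yeast for binding mRNAs of mitochondrial proteins through a motif read as TGTANATA in DNA letters. In the 200 bases after the stop codon, on the transcribed strand, 30 of 31 members (96.8%) held this motif, against 843 of 5896 nuclear genes (14.3%). On the opposite strand of the same window it stood in 5 members (16.1%) and in 13.1% of the nuclear genes. RSM22 was the member without a match. The 36 sites began 7 to 138 bases after the stop codon, with a median of 55, and 5 members had several. The variable base was A in 20 sites, T in 9 and C in 7. The sites are shown for members with the motif and the highest or lowest log2 fold changes of assemblies over total RNA. They were chosen because the same motif occurs at both ends of that range. Each line is read 5′ to 3′ along the mRNA strand from the RefSeq genome of build R64, with the motif in capitals and the 10 bases on either side of it in lower case. RSM19 has 3 sites, of which the middle one is printed.

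RSM18, chrV:253887-253914, minus strand: tagttctgtcTGTAAATAtacaatatgt
MRP4, chrVIII:100430-100457, plus strand: aacctaaactTGTACATAtgcccatata
RSM23, chrVII:267627-267654, minus strand: ccatttctcaTGTACATAtaaatagata
MRPS12, chrXIV:694270-694297, minus strand: tacaacctttTGTAAATAgcaatgacca
MRPS8, chrXIII:572762-572789, plus strand: atacggaccaTGTAAATAataatattat
RSM19, chrXIV:694997-695024, minus strand: tgatatatcaTGTAAATAagatcaagcc
RSM26, chrX:619112-619139, plus strand: tcttatatacTGTAAATAgttttatttt

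Most small-subunit mRNAs stood lower in the assemblies than in total RNA. Of the 31, all of which passed the filter of a mean of at least 10 normalised reads, 25 were lower, 4 were higher and 2 were not called (limma on log2(value + 1), Benjamini-Hochberg adjusted over 5670 genes, threshold 0.05). The background was high, since 40.8% of all genes tested were lower and 41.3% higher. The median log2 fold change of the members was -1.22, against 0.017 over all genes tested. A fall of at least 2-fold was found for 20 of the 31, against 25.8% of all genes. In 25 members the 3 assembly values all lay below the 3 total RNA values (42.6% of all genes), in 4 they all lay above (42.7%), and in 2 the groups overlapped. The share of all reads that came from the 31 genes does not depend on the size factors. In replicates 1, 2 and 3 it was 0.0658%, 0.04998% and 0.0585% for assemblies, against 0.145%, 0.145% and 0.153% for total RNA. The same genes were called, 4 higher and 25 lower, by edgeR's quasi-likelihood test and by DESeq2 on the recovered reads. The calls moved with the scaling. With equal library totals 27 were lower (background 53.7%) and 0 higher (background 27.9%) at adjusted p below 0.05 by limma, and 0 were higher at an unadjusted p below 0.05. With quantile normalisation 21 were lower (background 37.1%) and 3 higher (background 42.4%), and MRPS28, MRPS16, MRPS17 and SWS2 were no longer called lower (adjusted p = 0.530, 0.224, 0.0535 and 0.0539).

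**Figure D1:**
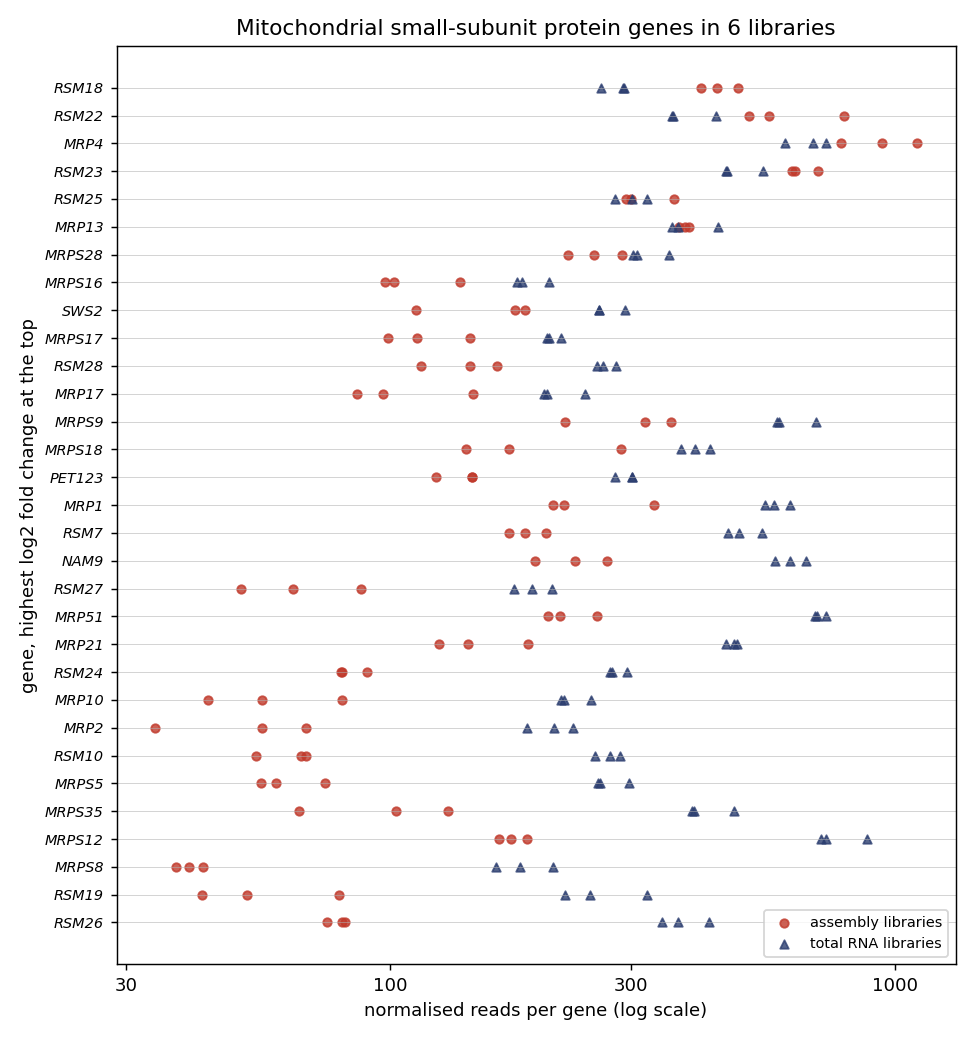
Normalised reads (log scale, horizontal axis) of each of the 31 genes (vertical axis, ordered by log2 fold change) in the 3 assembly libraries (circles) and the 3 total RNA libraries (triangles). From MRPS28 downward the assembly values lie left of the total RNA values in all 25 genes, while the 4 genes at the top lie to the right; with equal library totals none of those 4 was called.

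The lowest member was RSM26 (YJR101W), whose product belongs to the proteins without a bacterial counterpart and is related in sequence to superoxide dismutases. Its gene lies on chromosome X at 618234 to 619034. It had 80.4, 75.05 and 81.3 normalised reads in replicates 1, 2 and 3 of the assemblies, against 372, 345 and 427 in those of total RNA, and values below follow the same order. The assembly values lay close together and far below the lowest total RNA value. The log2 fold change was -2.25 (SE 0.14; limma, adjusted p = 3.17e-07), a 4.77-fold lower level. MRP1, the other member related to superoxide dismutases, had a log2 fold change of -1.22 (SE 0.17; limma, adjusted p = 3.07e-05).

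RSM19 (YNR037C) and MRPS12 (YNR036C) are neighbours on chromosome XIV, on the same strand with 229 bases between their coding sequences, and were both among the 4 lowest. RSM19, at 695052 to 695327, encodes the counterpart of bacterial protein S19 and is the shortest member. It had 79.2, 52.0 and 42.4 normalised reads in the assemblies and 249, 222 and 323 in total RNA, so that the spread was wide in both groups but the groups stayed apart. MRPS12, at 694361 to 694822, encodes the counterpart of S12, which in bacteria lies at the decoding site and can carry streptomycin resistance. It had 186, 165 and 173 normalised reads in the assemblies and 713, 729 and 879 in total RNA, the widest gap in reads of any member. Their log2 fold changes were -2.21 (SE 0.22; limma, adjusted p = 2.23e-06) and -2.14 (SE 0.13; adjusted p = 3.17e-07). The genes that flank the pair, DBP6 beyond RSM19 and ARC35 beyond MRPS12, went the other way, with log2 fold changes of 1.43 and 0.78. Their coding sequences are longer, with 1890 and 1029 nt against 276 and 462 nt, and 41.3% of all genes tested were higher.

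MRPS8 (YMR158W), the counterpart of bacterial S8, lies on chromosome XIII and completes the 4 lowest. It had 42.6, 39.9 and 37.7 normalised reads in the assemblies and 181, 162 and 211 in total RNA. Its groups did not overlap, and it fell by 2.17 on the log2 scale (SE 0.16; limma, adjusted p = 3.56e-07).

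The 4 members called higher changed far less than the lowest ones. RSM18 (YER050C), the counterpart of bacterial S18, lies on chromosome V at 253971 to 254387. It had 445, 413 and 489 normalised reads in the assemblies and 291, 262 and 289.8 in total RNA. Every assembly value was above every total RNA value, and the log2 fold change was 0.67 (SE 0.13; limma, adjusted p = 0.000347), or 1.59-fold. With equal library totals it kept its sign and was not called (0.11, adjusted p = 0.459). The genes beside it on the opposite strand, TPA1 and JHD1, are 308 and 268 bases away and had log2 fold changes of 0.84 and -0.60.

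RSM22 (YKL155C), the methyltransferase-like member, is thought to act on the small subunit without being a stable part of it. It lies on chromosome XI at 159456 to 161342 and had 513, 562 and 792 normalised reads in the assemblies and 363, 361 and 442 in total RNA. Assembly library 3 was well above the other assembly libraries, and the groups did not overlap. The log2 fold change was 0.66 (SE 0.17; limma, adjusted p = 0.00325), and 0.092 with equal library totals (adjusted p = 0.575).

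MRP4 (YHL004W), the counterpart of bacterial S2 on chromosome VIII, and RSM23 (YGL129C), a protein of the mitochondrial set whose human relative is DAP3, on chromosome VII, were called higher by smaller margins. MRP4 had 942, 782 and 1107 normalised reads in the assemblies and 604, 688 and 729 in total RNA. RSM23 had 624, 634 and 704 in the assemblies and 463, 464 and 548 in total RNA. The groups were apart in both genes, with log2 fold changes of 0.48 for MRP4 (SE 0.15; limma, adjusted p = 0.0105) and 0.41 for RSM23 (SE 0.13; adjusted p = 0.00958). Both turned to the other sign with equal library totals (-0.091 and -0.15, adjusted p = 0.578 and 0.235). With quantile normalisation neither was called (0.077 and 0.24, adjusted p = 0.604 and 0.0688). Both calls were also lost without total RNA library 1 (adjusted p = 0.0608 and 0.0604), and that of RSM23 without total RNA library 2 (0.0577).

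Near the middle, RSM25 (YIL093C) and MRP13 (YGR084C), both without a bacterial counterpart, were not called. RSM25 had 299.7, 293 and 365 normalised reads in the assemblies and 279, 302 and 322 in total RNA, with a log2 fold change of 0.081 (SE 0.14; limma, adjusted p = 0.590). MRP13 had 374, 391 and 383 in the assemblies and 372, 362 and 446 in total RNA, with a log2 fold change of -0.034 (SE 0.13; adjusted p = 0.815). Both were called lower with equal library totals (-0.48 and -0.60), whereas with quantile normalisation RSM25 was called higher (0.31, adjusted p = 0.0351) and MRP13 was not called (0.038). MRPS28 (YDR337W), the counterpart of S15, was the weakest of the lower calls, with 253, 225 and 288 against 309, 303 and 356. Its log2 fold change was -0.34 (SE 0.14; limma, adjusted p = 0.0384), and the call was lost whenever assembly library 1 or 2 or any of the total RNA libraries was left out (adjusted p from 0.0602 to 0.146).

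The remaining lower members are given by class. Among those with a bacterial counterpart, 17 of 19 were lower and 2 higher (median log2 fold change -1.42). MRPS5 (-2.10), RSM10 (-2.09) and MRP2 (-2.02), the counterparts of S5, S10 and S14, were lowest after the members already described. MRP21 (-1.66) and MRP51 (-1.65), which interact genetically with the leaders of mitochondrial mRNAs in yeast, followed. NAM9, whose mutations suppress nonsense mutations in mitochondrial genes and whose product matches S4, had -1.43, and RSM7, matching S7, -1.42. MRPS18, MRPS9, MRP17, MRPS17, SWS2 and MRPS16, the counterparts of S11, S9, S6, S17, S13 and S16, lay between -1.07 and -0.76. All of these fell at a limma adjusted p of 0.00154 or less.

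Among the members without a bacterial counterpart, 8 of 12 were lower (66.7%), 2 were higher (16.7%) and 2 were not called, with a median of -1.16. The shares over all genes tested were 40.8% lower and 41.3% higher. MRPS35 (-2.13), MRP10 (-1.96), RSM24 (-1.74) and RSM27 (-1.53) were the lowest after RSM26. MRP10 is a small protein of the twin CX9C type, which carries paired cysteines. PET123 (-1.09) and RSM28 (-0.94), both linked by genetics to the translation of mitochondrial mRNAs, were the others, with MRP1. The classes overlapped over nearly their whole range, and the difference between them was not tested. They also differ in median coding length, with 612 nt for members with a counterpart and 963 nt for those without. With the trend with length and GC content removed, as described below, their medians were -0.40 and -0.27.

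Coding length is related to the change in these data over all nuclear genes, with Spearman's rho of 0.676 over 5504 genes. Across the 31 members rho was 0.306, and replicates 1, 2 and 3 of the assemblies, each taken alone against averaged total RNA, gave 0.220, 0.324 and 0.431. The members share these libraries and are not independent. Of the 10 members under 500 nt, 9 were lower and 1 was higher (median log2 fold change -1.74, against -1.34 over 692 nuclear genes of that length, of which 73.3% were lower and 13.4% higher). Of the 13 from 500 to below 1000 nt, 12 were lower and 0 higher (median -1.22, against -0.94 over 1390 genes, of which 69.1% were lower and 15.0% higher). Of the 8 from 1000 to below 2000 nt, 4 were lower and 3 higher (median -0.48, against 0.093 over 2148 genes, of which 35.1% were lower and 39.7% higher).

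Members of nearly the same length could differ widely. The log2 fold change was 0.081 for RSM25 (795 nt) and -2.25 for RSM26 (801 nt). RSM18, with 417 nt, had 0.67, between MRP17 with 396 nt (-1.01) and SWS2 with 432 nt (-0.80). MRP13, with 1020 nt, had -0.034, and MRPS35, with 1038 nt, had -2.13. These pairs were chosen after their values were seen.

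**Figure D2:**
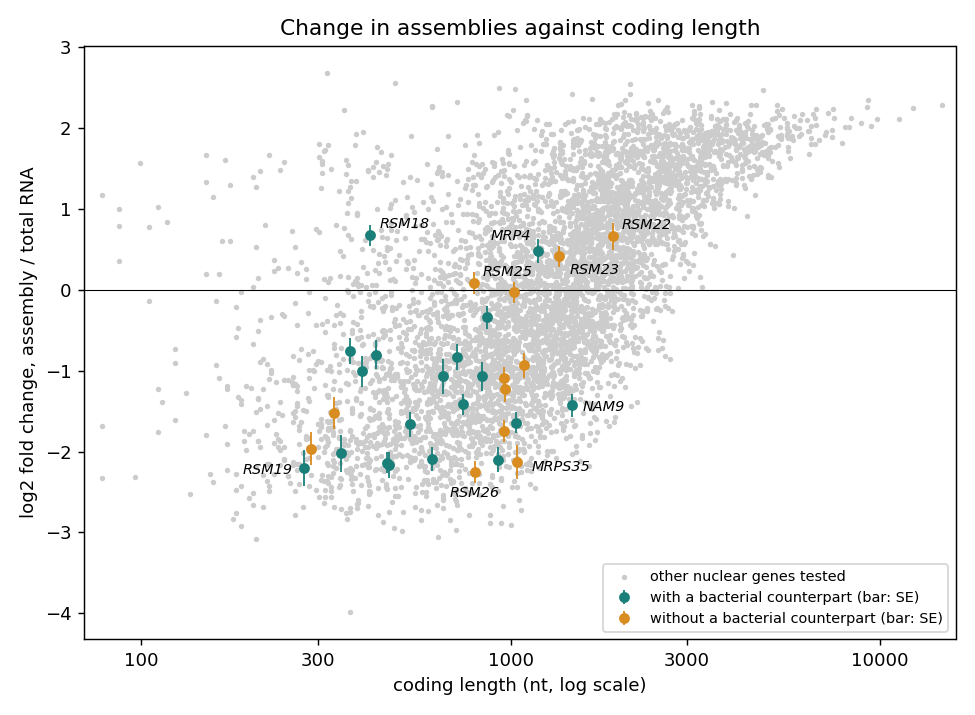
Log2 fold change of assemblies over total RNA (vertical axis) against coding length (horizontal axis, log scale) for the 31 genes, coloured by class with bars of 1 SE, and for the other nuclear genes tested (grey). RSM18 stands at 0.67 with 417 nt and RSM26 at -2.25 with 801 nt, while the grey points rise with length.

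The change was then read against a trend with coding length and GC content that was fitted over 5504 nuclear genes within each library and removed. The median of the members moved from -1.22 to -0.30, and 20 of 31 remained below 0. Over all nuclear genes fitted the median was -0.016, and 2793 of 5504 lay below 0. Of the 31, 14 were called lower and 9 higher (limma, adjusted over 5504 genes), against 35.1% and 33.8% of all genes, and 8 were not called. MRPS12 (-1.71), RSM19 (-1.66), MRPS35 (-1.59), RSM7 (-1.58), MRPS5 (-1.50), RSM26 (-1.39) and NAM9 (-1.36) were furthest below the trend. MRPS12, RSM19 and RSM7 have the highest GC contents of all members, at 49.4%, 48.6% and 52.0%, where the median member has 39.2%. RSM18 was furthest above the trend, at 2.02 (SE 0.14; limma, adjusted p = 2.47e-05), followed by RSM23 at 0.76 (SE 0.10; adjusted p = 0.000333). RSM22, the longest member, which was higher before, stood at 0.24 and was not called (limma, adjusted p = 0.187). MRPS28, MRPS16, MRPS17 and MRP17, which were lower before, were higher relative to the trend (0.47, 0.41, 0.43 and 0.41), and SWS2 turned to 0.42 and was not called (limma, adjusted p = 0.113).

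**Figure D3:**
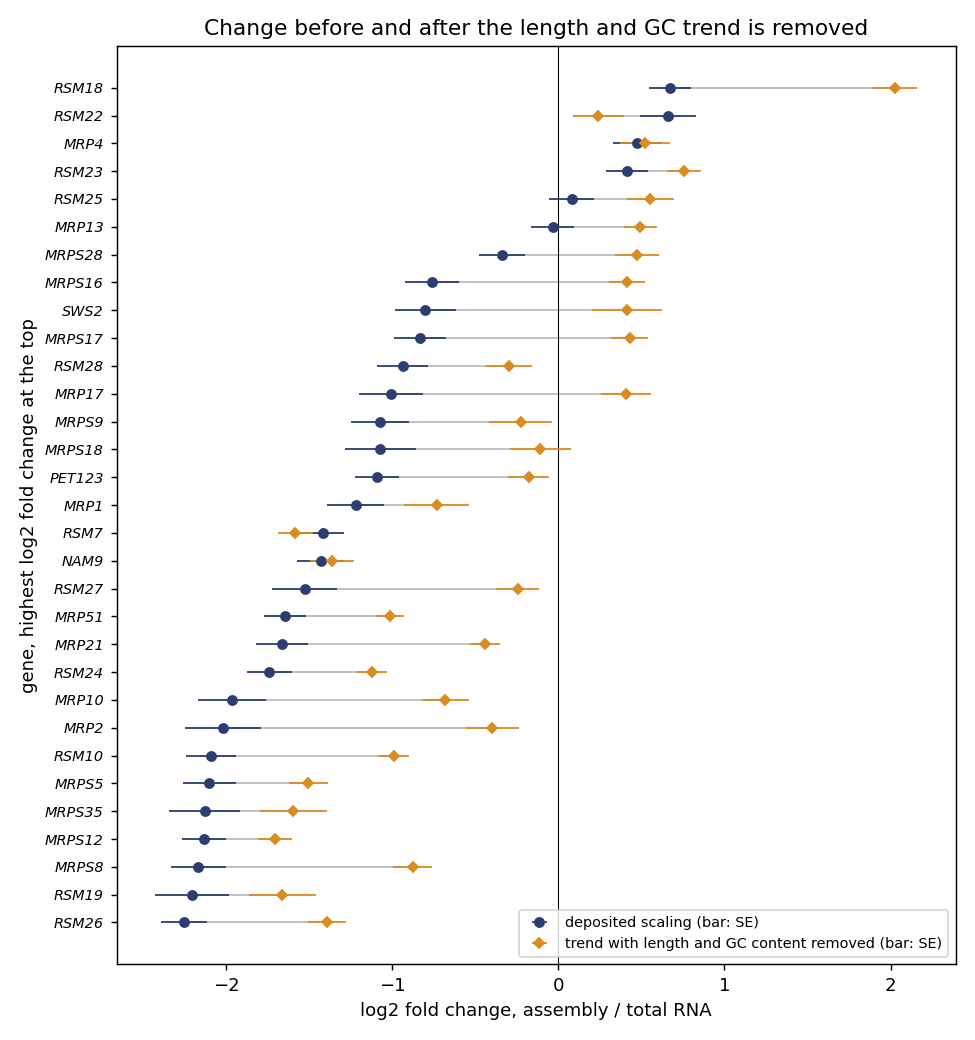
Log2 fold change of each of the 31 genes with the deposited scaling (circles) and after the trend with coding length and GC content was removed (diamonds), with bars of 1 SE. RSM18 moves from 0.67 to 2.02, while MRPS12 and RSM7 stay below -1 in both.

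The proteins of the subunit are present in the particle in about equal number, and the levels of their mRNAs were compared per kb of coding sequence. In total RNA the highest level was that of MRPS12, with 1675 ± 198 normalised reads per kb, and the lowest that of RSM22, with 206 ± 24.3 (mean ± SD, n = 3 libraries). RSM19 (959.8 ± 189), MRP21 (892 ± 22.9) and MRP10 (798 ± 60.6) followed MRPS12, and RSM28 (246 ± 11.1) and RSM24 (292 ± 12.9) stood just above RSM22 (n = 3 each). The highest level was 8.02, 8.25 and 8.13 times the lowest, that of RSM22, in total RNA libraries 1, 2 and 3. RSM22 is thought not to be a stable part of the subunit, so this range is wider than without it. The next lowest, RSM28, had 243, 236 and 258 normalised reads per kb, against 1543, 1578 and 1902 for MRPS12. In the order of levels, 26 of the 30 neighbouring pairs overlapped over the 3 libraries. The pairs that did not were MRPS12 over RSM19, RSM23 over PET123, RSM24 over RSM28 and RSM28 over RSM22.

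In the assemblies the order was different. RSM18 was highest, with 1076 ± 92.1 normalised reads per kb, followed by MRP4 (796 ± 137) and RSM23 (483 ± 32.1), and MRPS5 was lowest, with 68.2 ± 10.8 (n = 3 each). MRPS12 took the fifth place, with 378 ± 23.7, and RSM22 the ninth, with 329.7 ± 79.04 (n = 3 each). Here too 26 of the 30 neighbouring pairs overlapped over the 3 libraries, so most single places are not settled. The pairs apart were RSM18 over MRP4, MRP4 over RSM23, RSM23 over RSM25 and MRPS8 over MRPS5. The highest level was 13.3, 15.4 and 19.6 times the lowest in assembly libraries 1, 2 and 3. The SD of the log2 level over the 31 genes was 0.912, 0.896 and 1.07 in the assembly libraries and 0.636, 0.644 and 0.649 in the total RNA libraries, so the levels were spread more widely in every assembly library. Spearman's rho between the levels per kb in assemblies and in total RNA was 0.327 across the 31 genes. Level per kb and coding length had a rho of -0.564 in total RNA and -0.001 in assemblies, each across the 31 genes. Coding length is the divisor of level per kb, so a negative rho can come from the division alone.

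**Figure D4:**
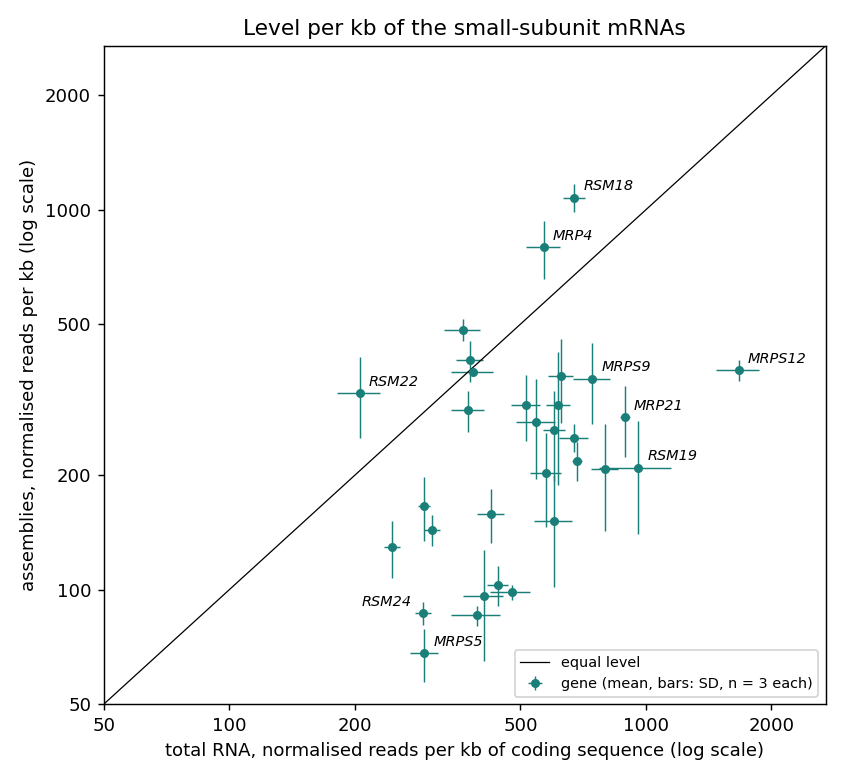
Normalised reads per kb of coding sequence in assemblies (vertical axis) against total RNA (horizontal axis), both on log scales, as the mean of 3 libraries with bars of 1 SD; the line marks equal levels. MRPS12 lies far to the right at 1675 in total RNA and 378 in assemblies, and RSM18 is highest in assemblies at 1076.

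The spread between libraries was wider in the assemblies. The coefficient of variation had a median of 17.1% over the 31 genes in assemblies, from 2.22% in MRP13 to 38.2% in MRPS18, and a median of 7.93% in total RNA. Assembly library 1 held the highest of the 3 assembly values for 17 members and assembly library 2 for 2. Total RNA library 3 held the highest of the 3 total RNA values for 28 members.

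RefSeq gives 4 further genes a 37S product. VAR1, the protein of the subunit that is encoded in mitochondrial DNA, had 18.3, 7.26 and 4.71 normalised reads in the assemblies and 100.5, 113 and 146 in total RNA. It fell by 3.62 on the log2 scale (SE 0.38; limma, adjusted p = 2.72e-06), further than any nuclear member, from 15, 6 and 4 reads in the assembly libraries. FYV4 and QRI5 (also called COX24) were lower, with -1.22 and -0.81, although the QRI5 groups overlapped (67.0, 172 and 95.5 against 172, 166 and 209). EHD3, which also matches hydrolases of branched-chain amino acid breakdown, was higher, with 728, 834 and 935 against 584, 508 and 673 and a log2 fold change of 0.50 (SE 0.15; limma, adjusted p = 0.00689), which turned to -0.06 with equal library totals. With the trend with length and GC content removed, EHD3 was still higher (0.40). FYV4 and QRI5 were then not called (0.11 and 0.12; limma, adjusted p = 0.442 and 0.756). With quantile normalisation FYV4 was still lower (-0.51), whereas QRI5 (-0.22) and EHD3 (0.18) were not called.

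Genes that work with the subunit were called in both directions, at shares set here beside the 41.3% higher and 40.8% lower of all genes tested. Of 8 mitochondrial translation factors, 3 were higher (37.5%), 2 lower (25%) and 3 not called (median log2 fold change -0.12). GUF1, an elongation factor of the LepA type, was highest (1.05; limma, adjusted p = 1.33e-05), and TUF1, the mitochondrial counterpart of elongation factor Tu, was lowest (-0.74; adjusted p = 0.0044). Of 17 translational activators and related factors of mitochondrial mRNAs, 7 were higher (41.2%), 6 lower (35.3%) and 4 not called, with a median of -0.035. MSS51, which activates translation of COX1 mRNA, was highest (1.66; limma, adjusted p = 6.62e-07), and CBS1, an activator for COB mRNA, was lowest (-2.13; adjusted p = 3.45e-05). The value of CBS1 rests on 9, 20 and 9 reads in assembly libraries 1, 2 and 3. With the trend with length and GC content removed, MSS51 stood at 1.54 and CBS1 at -0.86. The motif described above stood in 7 of the 8 translation factors and 13 of the 17 activators, MSS51 and GUF1 among them. The median coding length was 1626 nt in the translation factors and 1671 nt in the activators, against 795 nt in the members. With the trend with length and GC content removed, the medians of these 2 lists were -0.05 and -0.51. Then 3 translation factors were lower and 3 higher. Of the activators 10 were lower and 5 higher, against 35.1% and 33.8% of all genes.

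The large subunit of the mitochondrial ribosome and the small subunit of the cytosolic one are given for comparison. Among the 42 protein genes of the large subunit 35 were lower (83.3%) and 3 higher (7.14%), against 40.8% and 41.3% of all genes tested. Their median log2 fold change was -1.18, their median coding length 616.5 nt, and all 42 held the motif. In the cytosolic small subunit, 52 of 57 genes were lower (91.2%) and 1 was higher (1.75%). There the median change was -1.85, the median coding length 432 nt, and 2 genes held the motif. Near-identical copies were searched for the 31 members only, and how multiply mapped reads were counted is not given. Whether the comparison genes were measured separately from any such copies is therefore not settled. With the trend with length and GC content removed, the median was -0.42 in the large and -0.84 in the cytosolic small subunit. For the 31 members it was -0.30. In that order 25, 40 and 14 genes were then called lower and 10, 8 and 9 higher, against 35.1% and 33.8% of all genes. Over all nuclear genes tested, the 824 with the motif had a median of -0.39 and the 4680 without it 0.089. After removal of the trend with length and GC content these medians were -0.18 and 0.014. No test of a difference between these sets was made.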

How the data were processed

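Per the submitters' processing notes, the tools were DESeq 1.22.1, HTSeq, Bowtie 0.12.7, Trimmomatic 0.32 and FastQC, and the build was R64. The strand setting, the annotation and how multiply mapped reads were counted is information not given in the sources used here. In the table, the authors deposited 1 signal for each open reading frame in each library, which the file headers call normalised reads. All nonzero values (100%) were whole multiples of 1 read within 0.01, so that reads and size factors (0.821 to 1.32) were recovered. Of 6603 open reading frames, 5915 matched a RefSeq coding sequence, and overlap with the other 688 could not be examined.

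The main test, chosen because the signal is normalised, was limma 3.58.1 in R 4.3.3, with log2(value + 1) as input, a trended prior, no covariate and two-sided p-values. It took in 5670 genes, those whose mean reached 10. Fold changes on this scale understate the change of low genes. Alternatives were edgeR 4.0.16, DESeq2 1.42.0, other pseudocounts, filters and scalings, and leaving out each library. The trend with log2 coding length and GC content used natural splines with 5 degrees of freedom each. Near-identical sequences were BLAST hits of at least 95% identity over 50% of the length. Limma was tested on simulated data. Replicate numbers were not used to pair the libraries in the main test, and whether they do pair them is not settled. Values per library were printed for the 4 highest and 4 lowest members, the 3 nearest 0 and the extremes of level per kb; in the other lists, the highest and lowest called members were named. The members, lists and tests were chosen with earlier results of these data known. Intervals were not computed, and protein sequences were not used here.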

Additional observations from a re-analysis of the deposited data

How the results depend on the processing

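The counts of genes and members called, the member median, the members' rho with coding length and the 31 member fold changes were recomputed under 19 alternatives, of which 1, averaging total RNA libraries 1 and 2 as 1 sample, was chosen after seeing the data. Of 589 single-gene values, 547 kept their direction and their side of the threshold, and 14 members did so under every alternative. Levels per kb, length groups, classes and the comparison sets were not recomputed, apart from the values given above. Equal library totals left 0 members higher and gave a median log2 fold change of -1.79. Quantile normalisation left 3 members higher and 21 lower, lowered the rho between change and coding length to 0.16, and altered 8 of the 31 member values: 6 calls were lost, RSM25 was called higher (0.31) and MRP13 changed sign. Removal of the trend with length and GC content gave 9 members higher, 14 lower, a median of -0.30 and a rho of 0.0625. By construction that alternative takes out the relation with length over all nuclear genes, which does not fix the rho within the members. Leaving out 1 library gave a median from -1.36 to -1.13 and 2 to 4 members higher, with 2 without total RNA library 1. Signs turned for MRP4 (-0.091), RSM23 (-0.15) and RSM25 (-0.48) with equal totals. They also turned for RSM25 with TMM factors (-0.016), with edgeR (-0.011) and without assembly library 3 (range over left-out libraries -0.020 to 0.14), and for MRP13 with quantile normalisation (0.038) and without total RNA library 3 (range -0.091 to 0.059). Neither gene was called with the deposited scaling. With the length and GC trend removed, MRP13 (0.49), MRP17 (0.41), MRPS16 (0.41), MRPS17 (0.43), MRPS28 (0.47) and SWS2 (0.42) turned. For the other changes the cause was not tested. The libraries share only replicate numbers: correlations of same-numbered deviations were 0.0777, 0.167 and 0.276, and not every library correlated best with its own number. A replicate block kept 4 members higher and 25 lower and called 2375 genes higher and 2350 lower, against 2342 and 2316. With 29 to 1031 reads per gene and library, counting error limits the lowest members most.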
